A study of Homo sapiens with 6 samples.

Results

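The Hippo pathway was followed here through 10 genes: its kinases STK3, STK4, LATS1 and LATS2, the scaffold SAV1, the MOB kinase activators MOBKL1A, MOBKL1B and MOBKL2B, the LIM protein Ajuba (JUB) and the effector YAP1. Members were the rows of the expression table whose identifier equals one of these names, which gave 9 of 37879 rows; MOBKL1B had no row of that name. The mRNAs of JUB and MOBKL2B were also followed by the study in Stau1 immune complexes. Total RNA was taken from HEK293T, an embryonic kidney line of human origin with the large T antigen of SV40. The cells had been transfected either with an empty vector (control, 3 arrays) or with a plasmid coding for Stau155-FLAG, the FLAG-tagged 55-kDa isoform of the RNA-binding protein Staufen1 (Stau1, 3 arrays). All cells of both groups received nocodazole (50 ng/ml, 15 h per the labels), a drug that blocks spindle assembly and holds cells in prometaphase. Transfection was transient in a single cell line, and the labels do not say whether replicates came from separate cultures, so p-values measure only the spread between these arrays. The question was whether the transcripts of this pathway differ in level when Stau1 is also made from a plasmid.

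In the Hippo pathway the kinases STK3 and STK4 (also called MST2 and MST1) bind the scaffold SAV1 and phosphorylate LATS1, LATS2 and their MOB1 activators. Active LATS kinases phosphorylate YAP1, which then leaves the nucleus and no longer drives transcription with the TEAD factors. Ajuba restrains the LATS kinases and is also known as an activator of Aurora A at mitotic entry. The pathway is known for limiting organ size, and its kinases also act at centrosomes and in mitotic exit.

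Levels are log2 intensities on Illumina BeadChip arrays after background correction and quantile normalization, and a row is the mean over the probes of 1 gene. Values of single arrays are listed in the order of replicates 1, 2 and 3. A row was called detected on an array when its detection p, set against negative control beads, was under 0.05, and was kept for testing when detected on at least 3 of the 6 arrays. This kept 13285 rows (35.1%), with 12730 to 13469 rows detected per array and median intensities from 83.0 to 102.2. Pearson's r between arrays over kept rows ran from 0.987 to 0.996. STAU1 itself, the plasmid's gene, had a control mean of 11.31 ± 0.10 (SD, n = 3) and a Stau1 mean of 11.46 ± 0.06 (SD, n = 3), a log2 change of 0.15 (limma, adjusted p = 0.999). Its groups did not overlap (exact two-sided permutation p = 0.1), the change was 0.09 without control replicate 1, and how far its probes read the plasmid's transcript is unknown. All 8 mitotic transcripts checked, CCNB1 and PLK1 among them, were detected on every array. Of 8 genes that mark HEK293 cells, NEFM, NEFL, CDH2, VIM, KRT8 and KRT18 were detected on every array, PAX2 on 1 and NEFH on none. PAX2 and NEFH were not kept and not tested. None of the 8 mitotic transcripts and 6 kept HEK293 markers passed in limma (lowest adjusted p = 0.999), but all 6 of these markers had a change below 0. KRT8, a keratin, was lower in each Stau1 array with a change of -0.61 (limma, unadjusted p = 0.0037, 95% interval -0.99 to -0.24). TOP2A, a topoisomerase of the mitotic list, had a change of -0.41 (limma, unadjusted p = 0.0158, 95% interval -0.72 to -0.09). Both were larger than any change among kept members, and their part in the members' values was not tested. Of markers of other cell types, 1 of 5 for fibroblasts, 3 of 5 for leukocytes and 2 of 4 for endothelium were detected on any array, and PTPRC, CD3E, DCN, VWF and CDH5 on none.

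Of the 9 members, 6 were kept: STK4, STK3, SAV1, MOBKL1A, YAP1 and MOBKL2B. STK4, STK3, SAV1, YAP1 and MOBKL2B were detected on all 6 arrays. MOBKL1A was kept with 3 detected arrays, 2 of them Stau1 arrays, so its place among kept rows leans on the group where it was higher. JUB, LATS2 and LATS1 were detected on 2, 1 and 0 arrays and were not kept. Signal over the array's background mean was 17.8 to 30.0 for STK4, 6.33 to 11.8 for STK3, 4.42 to 6.04 for SAV1, 2.82 to 4.16 for YAP1 and 1.63 to 2.54 for MOBKL2B. It was 1.17 to 1.38 for MOBKL1A, 1.11 to 1.32 for LATS2, 1.03 to 1.12 for JUB and 0.883 to 1.10 for LATS1. Rows carry different probes, so these ratios say how well each member was measured and give no order of transcript levels.

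**Figure D1:**
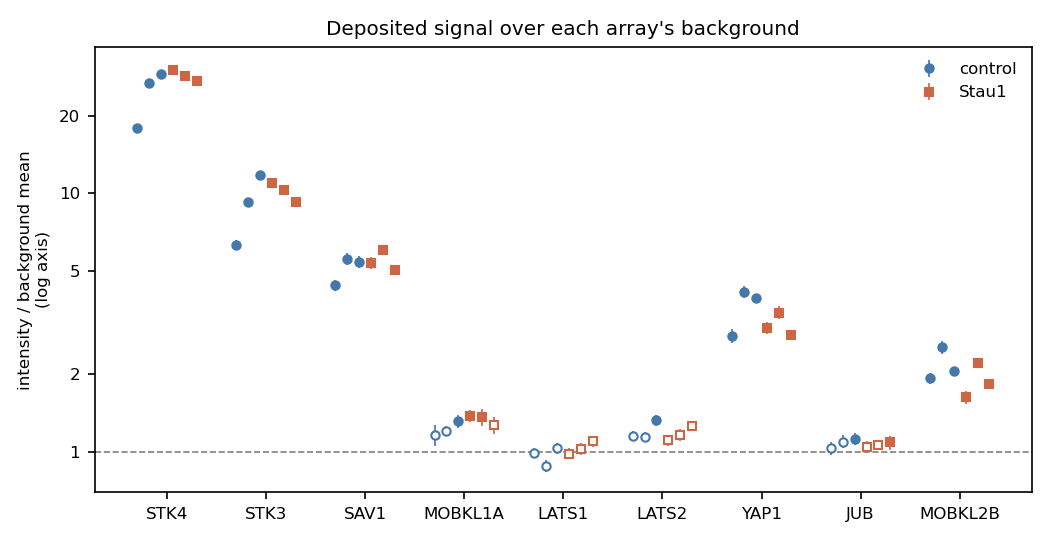
Deposited intensity of each member divided by the background mean of its array (log axis), with 1 point per array (circles, control; squares, Stau1) and bars for the standard error over beads. Filled points had a detection p under 0.05, and the dashed line marks the background mean, near which MOBKL1A, LATS1, LATS2 and JUB lie.

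No difference between the groups passed the test in any kept member. Of 6, 0 passed an adjusted p of 0.05 in limma and 0 had an unadjusted p under 0.05. The latter count ran from 0 to 2 with 1 array left out, where 234 to 1695 of all kept rows had such a p. The 2 came without Stau1 replicate 2 (428 of all kept rows), and the fit with 1695 rows had 1 member. With a filter of detection p under 0.01 on all 6 arrays the count was 1, YAP1 (318 of the rows kept there). It was 2 with array weights (1299 of all kept rows) and 2 with replicates as a block (604 rows). In the main fit, over all 13285 kept rows, 0 passed (0% of rows) and 496 (3.73%) had an unadjusted p under 0.05. Of kept rows, 2.41% had such a p and were higher in Stau1 arrays, and 1.32% were lower. A test without the variance moderation, named in the study's methods, likewise called 0 members, 0 of them at an unadjusted p under 0.05, where 3.49% of kept rows had one. STK4, STK3, SAV1 and MOBKL1A had a higher mean in Stau1 arrays, and YAP1 and MOBKL2B a lower one, where 49.4% of kept rows had a change above 0. The median log2 change was 0.11 over the 6 members and -0.00206 over all kept rows. It was 0.03 without control replicate 1, 0.06 without Stau1 replicate 2, 0.16 without control replicate 2 and 0.02 with array weights, and it counts MOBKL1A. With the background inferred from all rows it was also 0.02. That setting put the background SD at 337 to 488 per array, against 15 to 18 in the main fit, so changes of dim rows shrank under it. The median absolute change was 0.22 over the members and 0.09 over all kept rows. The former also counts MOBKL1A, and the SD over 6 arrays was above that of 98.6% of kept rows in MOBKL2B and 88.4% in YAP1. Whether the members differ from kept rows of like spread was not tested. The groups did not overlap in 1 of the 6 members, STK4, against 7.91% of kept rows (4.51% higher and 3.4% lower in Stau1 arrays). In the main fit every member's 95% interval lay within 2-fold in either direction, and 4 of the 6, MOBKL1A among them, lay within 1.5-fold. The wider intervals were those of YAP1 and MOBKL2B. MOBKL1A read near background and its change moved with the offset (0.23 in the main fit, 0.13 with an offset of 50). Its interval therefore does not bound the change of its transcript. The change of MOBKL2B, also a dim row, was -0.40 in the main fit, -0.29 with an offset of 50 and -0.23 with no background correction. The interval of MOBKL2B thus holds for the main setting only. With 3 arrays against 3, an exact two-sided permutation test cannot give a p below 0.1.

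**Figure D2:**
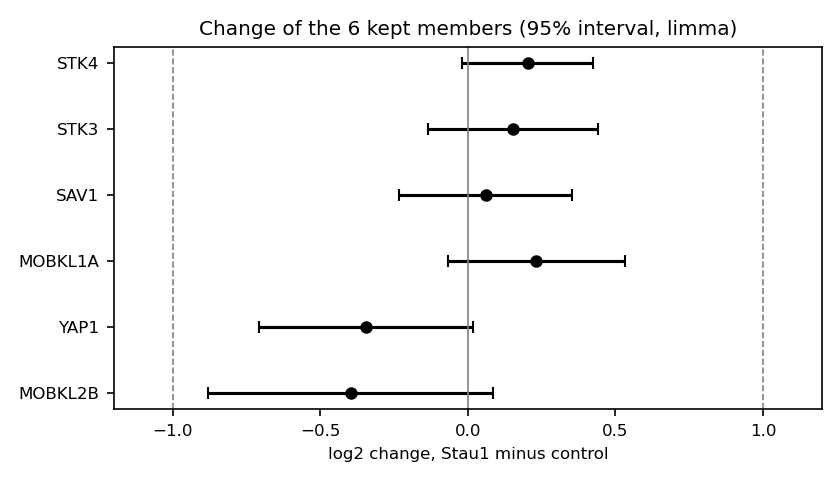
Log2 change (Stau1 minus control) of the 6 kept members, with points for limma's estimate and bars for the 95% interval. Dashed lines mark 2-fold; every interval includes 0 and lies between the dashed lines.

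STK4 is an upstream kinase of the core cascade. Its log2 intensity was 10.79, 11.12 and 11.00 on the control arrays and 11.18, 11.18 and 11.15 on the Stau1 arrays. Each Stau1 array read above each control, with a gap of 0.03 between the nearest arrays, and the Stau1 arrays stood closer together (SD 0.02, n = 3) than the controls (SD 0.17, n = 3), as over all kept rows, where the median SD was 0.12 in Stau1 and 0.17 in control arrays. The difference of 0.20 on the log2 scale (SE 0.10, 95% interval -0.02 to 0.42), or 1.15-fold, missed the threshold (limma, adjusted p = 0.999). By exact permutation, two-sided, p was 0.1, which is the lowest possible here. Of all kept rows, 4.51% lay higher in Stau1 arrays without overlap. Control replicate 1 was the lowest array, and without it the change was 0.11.

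STK3 is the paralogue of STK4 and acts beside it in the cascade. Its log2 intensity was 9.16, 9.51 and 9.64 on the control arrays and 9.66, 9.61 and 9.50 on the Stau1 arrays. Control replicate 1 stood alone below the other 5 arrays, and control replicates 2 and 3 lay among the Stau1 arrays. Stau1 minus control came to 0.15 (SE 0.13, 95% interval -0.14 to 0.44; limma, adjusted p = 0.999) and was 0.01 without control replicate 1. The SD among controls (0.25, n = 3) was larger than this change.

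SAV1, the scaffold that joins these kinases to LATS, was the member with the smallest change among those kept. Values were 8.51, 8.70 and 8.42 on the control arrays and 8.52, 8.76 and 8.52 on the Stau1 arrays. Replicate 2 was the highest array in each group, and the groups overlapped. Its log2 change of 0.06 (SE 0.14, 95% interval -0.23 to 0.35; limma, adjusted p = 0.999) turned sign without control replicate 3 (-0.0018), without Stau1 replicate 2 (-0.02) and with array weights (-0.02).

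MOBKL1A (now MOB1B) codes for one of the MOB1 proteins that bind and activate the LATS kinases. Its log2 intensity was 5.14, 5.23 and 5.44 on the control arrays and 5.54, 5.58 and 5.39 on the Stau1 arrays. Stau1 replicate 3 lay below control replicate 3, so the groups overlapped. The log2 change was 0.23 (SE 0.14, 95% interval -0.07 to 0.53; limma, adjusted p = 0.999). The signal was low: the standard error over beads was 20.6% to 64.3% of the intensity above background. The change was 0.12 with no background correction and 0.13 with an offset of 50. It was 0.01 with the background inferred from all rows, a setting that shrinks changes of dim rows.

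MOBKL1B (now MOB1A), the other MOB1 gene, was read on the row MOBK1B, an older name of the same gene in RefSeq. That row was looked up after MOBKL1B had been found absent and is not counted as a member. Its values were 5.53, 5.66 and 6.22 on the control arrays and 5.87, 5.12 and 5.88 on the Stau1 arrays. Values of the groups overlapped, and the log2 change was -0.18 (SE 0.22; limma, adjusted p = 0.999). The sign turned without control replicate 3 and without Stau1 replicate 2, so these arrays gave no stable direction for MOBK1B.

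LATS1 and LATS2, the kinases that phosphorylate YAP1, were at or near background. LATS1 had an intensity of 79.3, 70.4 and 96.0 on the control arrays and 73.5, 93.8 and 101.9 on the Stau1 arrays, against background means of 74.6 to 92.7 per array. Its lowest detection p was 0.076 (Stau1 replicate 3), and only 3 of the 6 arrays were above their background mean. LATS2 had an intensity of 92.7, 91.4 and 122.8 in the controls and 82.9, 105.7 and 116.8 in the Stau1 arrays, and control replicate 3 alone was detected. No change is given for either gene, since LATS1 was detected in neither group and LATS2 in none of the Stau1 arrays. A difference in LATS transcripts was not detectable at this signal.

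YAP1 is the transcriptional coactivator that the kinase cascade restrains. Its log2 intensity was 7.67, 8.18 and 7.84 on the control arrays and 7.44, 7.77 and 7.45 on the Stau1 arrays. Only control replicate 1 and Stau1 replicate 2 were in reverse order, and the other arrays of the groups were apart. The difference was -0.34 on the log2 scale (SE 0.17, 95% interval -0.71 to 0.02), and the Stau1 mean was 0.788 times the control mean (limma, unadjusted p = 0.0612, adjusted p = 0.999). Exact permutation, two-sided, gave p = 0.2. With 1 array left out the change ran from -0.46 (without control replicate 1) to -0.20 (without control replicate 2). It was -0.48 with array weights and -0.07 with the background inferred from all rows, which shrinks changes of dim rows. Over the settings its unadjusted p (limma) ran from 0.00567 with array weights to 0.285 with median scaling, and its lowest adjusted p was 0.316.

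**Figure D3:**
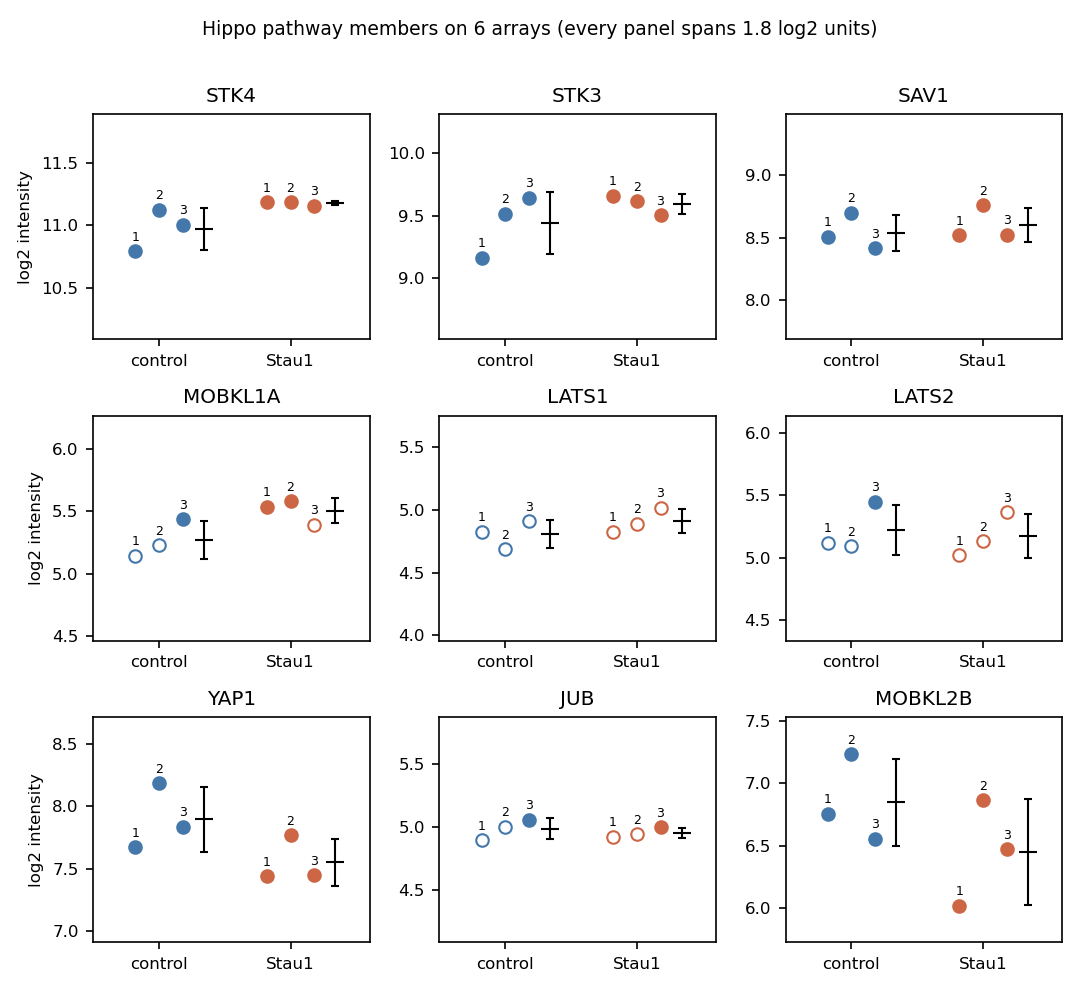
Log2 intensity of the 9 members on each array, with 1 panel per member, replicate numbers above the points and axes of equal length. Filled points had a detection p under 0.05, open points did not, and the black bar gives the mean ± SD of 3 arrays. Only in STK4 do all Stau1 points lie above all control points.

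JUB codes for Ajuba, the LIM protein that binds LATS kinases and Aurora A. Its deposited intensity was 82.8, 87.7 and 104.1 on the control arrays and 78.3, 96.6 and 101.0 on the Stau1 arrays. Control replicate 3 and Stau1 replicate 3 were the only arrays on which it was detected. On the log2 scale the control mean was 4.99 ± 0.08 (SD, n = 3) and the Stau1 mean 4.96 ± 0.04 (SD, n = 3), a change of -0.03 (SE 0.09). JUB was tested only in a fit with no filter and did not pass (limma, adjusted p = 0.999). The standard error over beads was 49.3% to 186.5% of its intensity above background, and its row averages several probes, so a signal on 1 of them would be diluted.

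MOBKL2B (now MOB3B), a MOB protein outside the MOB1 pair, varied most among the kept members. Its log2 intensity was 6.76, 7.23 and 6.56 on the control arrays and 6.02, 6.86 and 6.47 on the Stau1 arrays. Control replicate 2 was the highest and Stau1 replicate 1 the lowest, as in YAP1, and the groups overlapped. Its SD over the 6 arrays, 0.41, was above that of 98.6% of kept rows. The log2 change was -0.40 (SE 0.22, 95% interval -0.88 to 0.09; limma, adjusted p = 0.999), with p = 0.4 in the exact two-sided permutation test. Left-out arrays moved it more than any other member's change: it was -0.18 without Stau1 replicate 1, -0.20 without control replicate 2 and -0.60 without Stau1 replicate 2. The change came to -0.23 on uncorrected intensities and to -0.04 when all rows set the background. The latter setting shrinks changes of dim rows, and limma's unadjusted p was 0.102 with it, against 0.0986 in the main fit. Over the settings the unadjusted p of MOBKL2B (limma) ran from 0.0224 without Stau1 replicate 2 to 0.432 without Stau1 replicate 1. Its lowest adjusted p was 0.349.

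Of the 13283 other kept rows that varied, those most like MOBKL2B over the 6 arrays were SCOC (Pearson's r = 0.993), RRAS2 (0.993) and HS.562129 (0.991). These values are a description over 6 arrays with no test, and 94 rows had an r over 0.95. The log2 change was -0.32 in SCOC, -0.06 in RRAS2 and -0.17 in HS.562129.

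**Figure D4:**
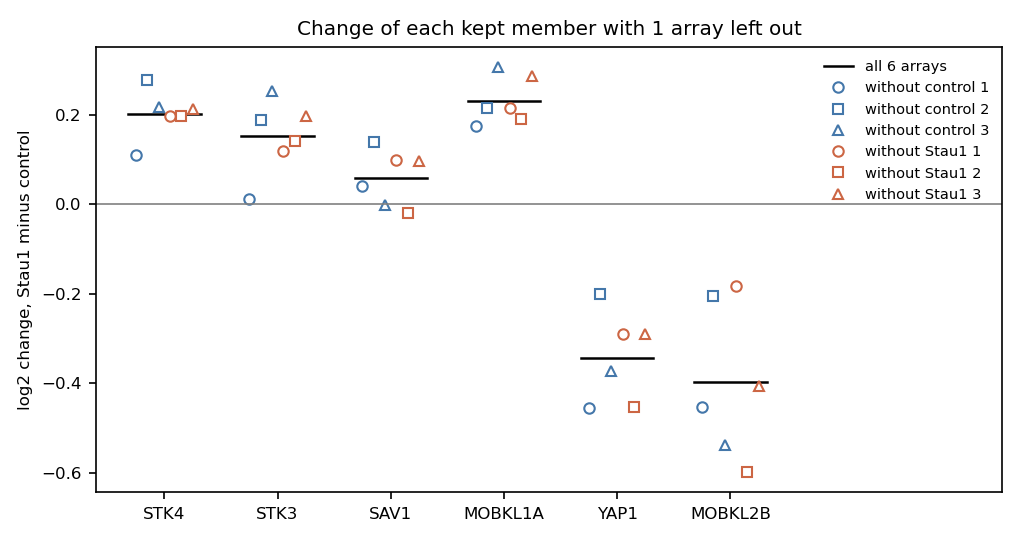
Log2 change (Stau1 minus control) of each kept member with all 6 arrays (black line) and with 1 array left out (open symbols). STK3 nears 0 without control replicate 1, SAV1 lies on both sides of 0, and MOBKL2B spans -0.60 to -0.18.

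Control replicate 3 bears on all counts: without it limma called 39 rows of 13285 (0.294%) at an adjusted p of 0.05, and 1695 (12.8%) had an unadjusted p under 0.05. None of those calls was a member. Without that array the log2 change was -0.54 in MOBKL2B (limma, adjusted p = 0.349), 0.31 in MOBKL1A, 0.25 in STK3, 0.22 in STK4 and -0.37 in YAP1. Each of the other 5 fits to 5 arrays called 0 rows.

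The rest of the pathway was read from 6 lists of 96 genes in all, of which 65 were kept. In each list 0 genes passed in either direction (limma, lowest adjusted p = 0.999), and 0 had an unadjusted p under 0.05, against 3.73% of kept rows. That count was 4 with no variance trend, where 463 of the 13285 kept rows had such a p, and the same with the methods' t-test. It was 6 with array weights (1299 of all kept rows) and 6 without control replicate 3 (1695, or 12.8%). The 65 genes had a median log2 change of 0.00846, with 34 above 0 and 31 below. The groups did not overlap in 5 of them (7.69%, against 7.91% of kept rows). The changes spanned -0.30 to 0.33.

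In the list of MOB relatives and NDR kinases, 3 of 7 genes were kept. MOBKL2A, a paralogue of MOBKL2B, had a control mean of 6.96 ± 0.43 (SD, n = 3) and a Stau1 mean of 6.66 ± 0.05 (SD, n = 3), a change of -0.30 (SE 0.20); control replicate 1 was the highest array (7.45), the groups overlapped, and the change was -0.46 without control replicate 3. The log2 change was 0.11 in the NDR kinase gene STK38 and -0.13 in STK38L, with overlapping groups. In the Ajuba and zyxin family list, which also held AURKA, 6 of 7 genes were kept with a median change of 0.00755. The 3 with the lowest p were WTIP (0.07), an Ajuba relative, TRIP6 (-0.04) and LPP (0.03), all with overlapping groups; without control replicate 3 they were 0.14, 0.06 and 0.15.

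Of 28 upstream regulators, 19 were kept with a median change of -0.02. SCRIB, a polarity scaffold, was higher in every Stau1 array (8.65 to 8.84) than in every control (8.47 to 8.63), by 0.21 (SE 0.13). NF2, which codes for merlin, was likewise apart, by 0.19 (SE 0.13), and MAP4K1, a kinase that can act on LATS, was lower in every Stau1 array, by a change of -0.24 (SE 0.15). These 3 were the only non-overlapping genes of the list (15.8%, against 7.91% of kept rows), and none passed the threshold (limma, adjusted p = 0.999 for each).

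The STRIPAK complex, which holds the PP2A phosphatase that acts on STK3 and STK4, had 15 of 16 genes kept and a median change of -0.00671. STRIP2 (row FAM40B) was 0.22 higher without overlap (SE 0.14). The change was -0.29 (SE 0.20) in the striatin gene STRN3 and -0.16 (SE 0.12) in the kinase gene STK26 (row MST4), both with overlapping groups. Without control replicate 3 it was -0.55 in STRN3, with the lowest adjusted p of all 65 genes (limma, 0.177). STK24, the gene not kept, read 10.75 in control and 10.90 in Stau1 arrays but had a detection p under 0.05 on 0 arrays; its row, like that of TEAD4, averages several probes, detection p included.

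Among the partners and turnover factors of YAP1, 11 of 17 genes were kept, with a median change of 0.04. CSNK1E, a casein kinase with a part in YAP1 turnover, had a control mean of 12.07 ± 0.10 (SD, n = 3) and a Stau1 mean of 12.25 ± 0.04 (SD, n = 3). It was 0.18 higher without overlap (SE 0.09), with an unadjusted p of 0.0536 and an adjusted p of 0.999 in limma. CSNK1D was higher by 0.18 and the 14-3-3 gene YWHAB by 0.20, with overlapping groups. Of the TEAD genes only TEAD2 was kept, at 10.68 in control and 10.53 in Stau1 arrays, and WWTR1, the YAP1 paralogue TAZ, was detected on 1 array. TEAD4 was not tested, since its detection p was under 0.05 on 1 array, although its row read 8.25 in control and 8.38 in Stau1 arrays and was higher in each Stau1 array; TEAD1 and TEAD3 were detected on 0. These genes were named after their values were seen.

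Genes known as transcription targets of YAP1 and TEAD were also read. Whether their mRNA levels report YAP1 activity in cells held in prometaphase was not tested. Of 21 such genes 11 were kept, 6 with a change above 0 and 5 below, with a median of 0.04, and the groups did not overlap in 0 of them, against 7.91% of kept rows. CTGF and CYR61, the best known of them, were named after their values were seen; their log2 changes were 0.05 and -0.03. The lowest p values were those of NT5E (0.33, SE 0.19), FJX1 (0.17, SE 0.11) and ASAP1 (0.17, SE 0.14), none past the threshold (limma, adjusted p = 0.999 for each). NT5E was highest on Stau1 replicate 1 (7.21), and its groups overlapped.

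**Figure D5:**
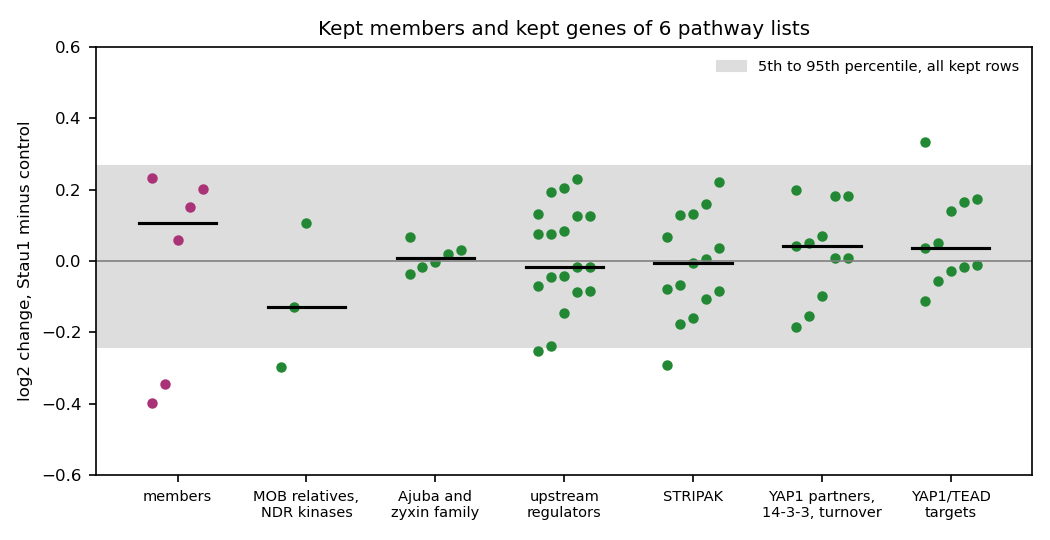
Log2 change (Stau1 minus control) of the 6 kept members and of the kept genes in 6 pathway lists, with 1 point per gene and a black line at each median. The grey band holds the 5th to 95th percentile of all kept rows (-0.24 to 0.27); YAP1 and MOBKL2B are the members outside it.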

How the data were processed

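Illumina HumanWG-6 v3 arrays were scanned by the authors and exported from BeadStudio. Per the file headers the deposited intensities had no normalization. Each intensity averages the probes of a gene. The authors deposited a detection p-value, a standard error over beads and a mean number of beads beside each intensity. Each of the 24 columns of values belongs to a labelled sample.

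With limma 3.58.1 (R 4.3.3), the intensities went through normexp background correction (offset 16), quantile normalization and log2. The background came from detection p-values of 30932 rows of 1 probe, those with whole bead numbers and a detection p in steps of 1 in 759 (tolerance 0.002 steps) on every array. Kept rows had a detection p under 0.05 on 3 or more arrays. The group comparison used lmFit and eBayes with its trend option, and p-values were adjusted over kept rows by Benjamini and Hochberg's method. The methods' t-test (equal variances, two-sided) was stated by the study for immunoprecipitated RNA and was run as an alternative. Members and gene lists were chosen with earlier results of these data known. Named genes were the members, STAU1, the 3 kept rows per list with the lowest p and the 3 rows most like MOBKL2B; markers, MOBK1B, AURKA, STK24, WWTR1, CTGF, CYR61 and the TEAD genes fall outside this rule. RefSeq synonyms (GRCh38.p14 table, names only) matched 5 list genes. The fit was tested on simulated data. Probe sequences were not used here. Figures were drawn with matplotlib 3.10.9.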

Additional observations from a re-analysis of the deposited data

How the results depend on the processing

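Members and pathway genes gave 0 calls under each of the 17 alternatives: background (none, or inferred from all rows), offset (50), scaling (cyclic loess, median), filter (none, or detection p under 0.01 on all 6 arrays, which drops MOBKL1A, MOBKL2B, STAU1 and MOBK1B), model (array weights, replicate block, no trend, the methods' t-test) and each of 6 left-out arrays. The fit with no trend and the methods' t-test gave the same p-values for every member, so they do not count as separate checks. Calls over all rows numbered 0 in every fit to 6 arrays and 0 to 39 in fits to 5, with 39 when control replicate 3 was dropped, for a cause that was not tested. The sign turned for SAV1 with array weights (-0.0180), and with 1 array left out SAV1 ran from -0.0188 to 0.139, JUB from -0.0772 to 0.00642 and MOBK1B from -0.319 to 0.0757. STK4, STK3, MOBKL1A and STAU1 stayed above 0, and YAP1 and MOBKL2B below, in every setting that kept their row. Ranges with all arrays were 0.14 to 0.28 for STK4, 0.07 to 0.24 for STK3, -0.48 to -0.07 for YAP1 and -0.49 to -0.04 for MOBKL2B. The -0.07 and -0.04 came from the background inferred from all rows, a setting that shrinks changes of dim rows. Same-numbered arrays deviated together with correlations of 0.02, 0.26 and -0.14, and were not taken as pairs. The replicate block called 0 rows (604 had an unadjusted p under 0.05 in limma, YAP1 and MOBKL2B among them) and changed no call. Signal over background limits LATS1, LATS2, JUB and MOBKL1A.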
